A study of Homo sapiens with 6 samples.

Results

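Mitochondria translate a small set of membrane proteins of the respiratory chain on a ribosome of their own, the mitoribosome. Its RNA is encoded in mitochondrial DNA, while its proteins are encoded in the nucleus, so that each of their mRNAs has to be processed and exported before the protein can be made in the cytosol and imported. The genes named MRPL and MRPS encode the proteins of the large and of the small subunit. Some of these proteins are homologues of bacterial ribosomal proteins, and the others were added in the mitochondrial lineage. ALYREF is an adaptor protein that is loaded onto nuclear mRNA and hands it to the export receptor.

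The genes described here are the rows of the authors' deposited tables whose symbol begins with MRPL or MRPS followed by a digit, 78 of 11679 genes. Of these, 76 are protein-coding genes, 51 of the large subunit and 24 of the small subunit, with MRPS36 counted apart. MRPS36 carries the symbol of a ribosomal protein, but its product has been assigned to the oxoglutarate dehydrogenase complex. The other 2 rows are the pseudogenes MRPS31P5 and MRPL45P2, with deposited means of 31.8 and 24.6 normalized counts, and neither was called with an siRNA. MRPS24 and MRPS18B were not analysed here. The human clear cell renal carcinoma line 786-O was transfected with ALYREF siRNA5, ALYREF siRNA8 or a non-targeting siRNA (NTC), with 2 libraries in each of the 3 groups. All groups grew in the same medium with 10% serum, were passaged into new medium 24 h after transfection and were collected at 48 h, and polyadenylated RNA was sequenced. All libraries come from this 1 line.

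The deposited tables give for each gene a mean over the 6 libraries, in counts normalized for library size, and a log2 change of each siRNA against NTC with its standard error (SE) and adjusted p. They give no value for a single library, so that the spread between duplicates enters only through the SE. Group levels below were rebuilt from that mean and both log2 changes, and carry no spread of their own. The adjusted p is the authors' DESeq2 Wald test with Benjamini-Hochberg adjustment over all rows, and a gene was called higher or lower where it was under 0.05. The labels do not say whether duplicates were separate cultures, so the spread behind p may be technical. The SE comes from a joint fit of all groups and is not the spread of a single group's duplicates alone. Both comparisons share the NTC libraries, so an NTC library that deviated would move both in the same direction.

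ALYREF itself had rebuilt levels of 437 with siRNA5, 604 with siRNA8 and 7711 normalized counts in NTC cells. Its log2 change in the authors' deposited tables was -4.14 (SE 0.0956) with siRNA5 and -3.67 (SE 0.0851) with siRNA8. Of 9 marker genes of a renal carcinoma line, 7 had a row, among them the renal transcription factor PAX8. Rows were also present for 1 of 4 immune, 0 of 3 endothelial and 2 of 3 fibroblast markers. The deposited means of all genes sum to 12632521 normalized counts, and the lowest is 11.6.

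In normalized counts, the mRNAs of the mitoribosome changed little after ALYREF knockdown, and their changes went in both directions. Such counts are relative to the other genes and do not show a change in the total amount of mRNA. The summed level of the 78 rows was 95.9% of NTC with siRNA5 and 101.6% of NTC with siRNA8. MRPL50 was the only member that changed more than 1.5-fold with either siRNA. Among all genes, 17.6% with siRNA5 and 15.4% with siRNA8 were past that fold by the authors' deposited tables. The median size of the log2 change, whatever its sign, was 0.17 with siRNA5 and 0.15 with siRNA8 for the members. For all genes it was 0.25 and 0.23 in the authors' deposited tables. It was 0.05 and 0.08 for cytosolic ribosomal protein genes, and 0.13 and 0.10 for complex I genes. The members' levels are higher than those of most genes, with a median deposited mean of 753 normalized counts against 459 for all genes. The median SE of their log2 changes was smaller, 0.0838 against 0.107 with siRNA5 and 0.0820 against 0.107 with siRNA8.

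With siRNA5, 10 members were called higher and 22 lower in the authors' deposited table. Together these are 41.0% of the members, beside 46.4% of all genes, of which 24.4% were higher and 22% lower. With siRNA8, 19 members were called higher and 13 lower in the authors' deposited table, again 41.0% of the members, beside 41.5% of all genes, of which 21% were higher and 20.5% lower. At a threshold of 0.01, 10 members were higher and 4 lower with siRNA8, beside 16% and 15.9% of all genes. At 0.05, the share of members called was near the share among all genes with both siRNAs. The median log2 change of the members was -0.03 with siRNA5 and 0.06 with siRNA8, and that of all genes was 0.01 with each, in the authors' deposited tables. In the direct comparison of the siRNAs, 2 members were higher and 12 lower with siRNA5 than with siRNA8, against a background of 32% of all genes called, 17.2% higher and 14.8% lower. This test takes the difference of both log2 changes, and its SE is an upper bound because it leaves out what the shared controls add to both. With that shared part removed, 5 members were higher and 20 lower, and 48% of all genes were called, 24.9% higher and 23.2% lower. The 20 include the pseudogene row MRPS31P5, with a deposited mean of 31.8, and without it 19 were lower.

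**Figure D1:**
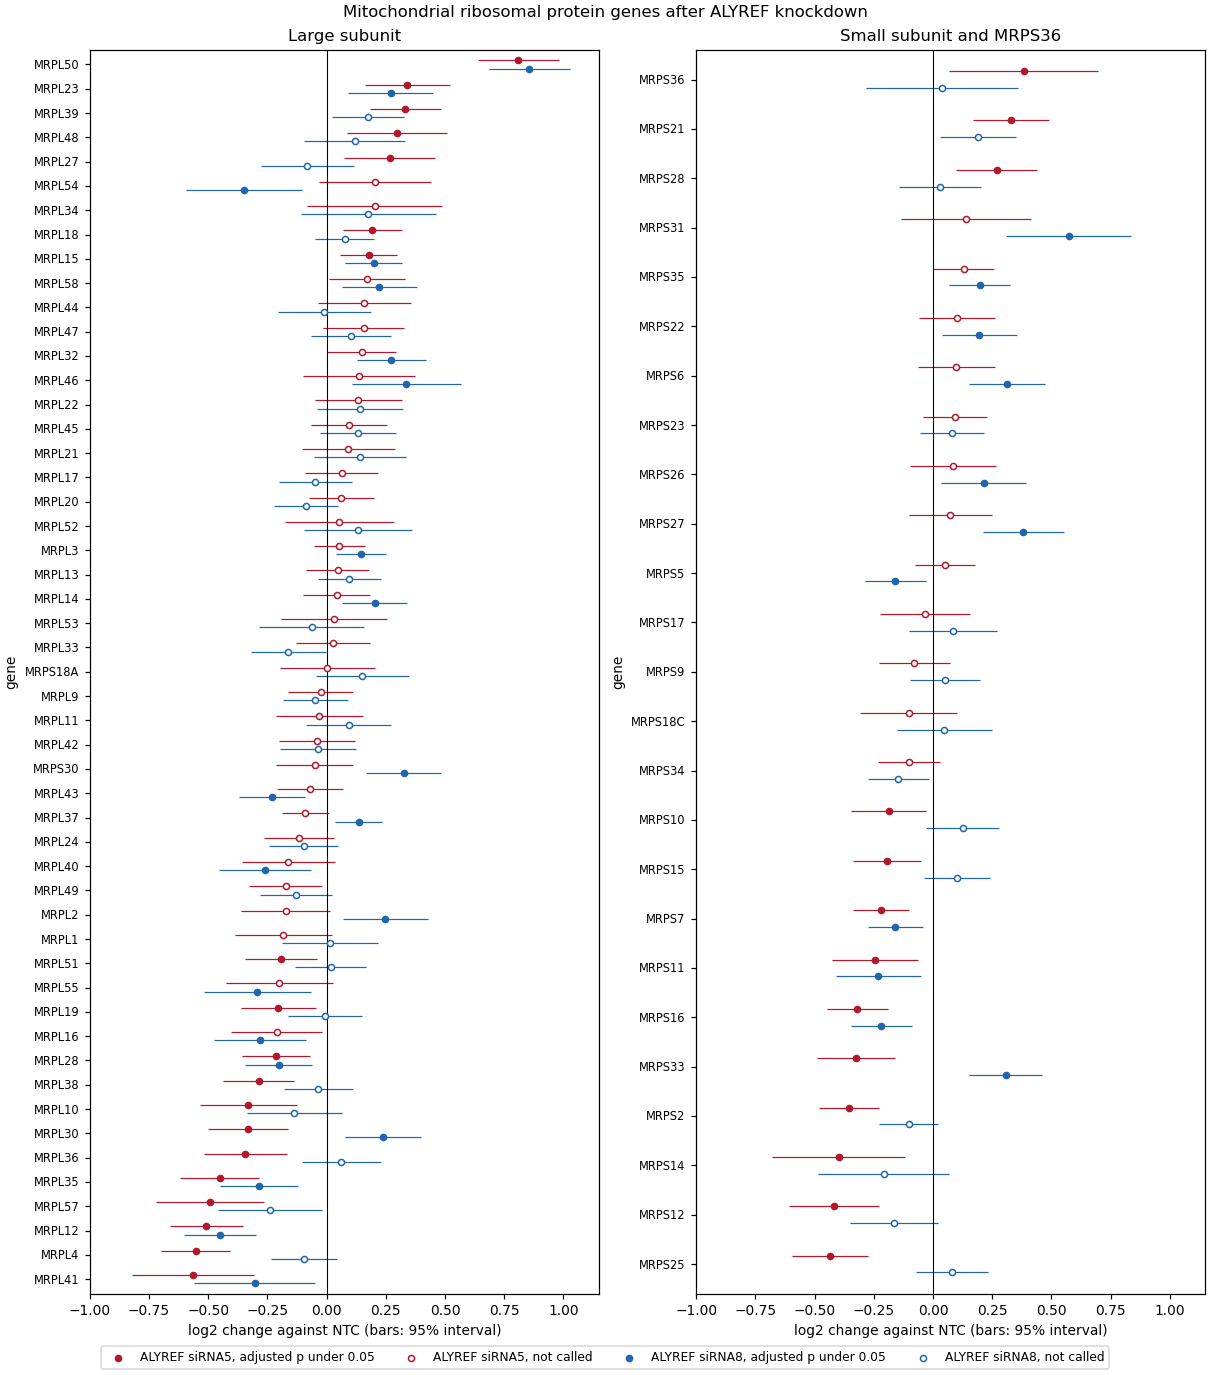
Log2 change against NTC for each of the 76 protein-coding members with siRNA5 (red) and siRNA8 (blue), large subunit on the left and small subunit with MRPS36 on the right, ordered by the change with siRNA5. Bars are 95% intervals from the authors' SE, and filled points have an adjusted p under 0.05; MRPL50 stands apart at the top at 0.81 and 0.86, and most other points lie within 0.5 of zero.

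The promoters of MRPL50, MRPS33, MRPL30, MRPS10 and MRPS21 are printed for the results that turn on these genes. MRPL50 rose most with both siRNAs. MRPS33 and MRPL30 were called lower with siRNA5 and higher with siRNA8. MRPS10 is lower with siRNA5 than with siRNA8 and carries both motifs described below, and MRPS21 rose with siRNA5 and carries a pair of ETS matches. The sequences are from RefSeq on build GRCh38.p14 and are read 5′ to 3′ on the gene's strand, from 250 bases before the annotated start to 30 bases after it. Capitals mark the ETS motif CCGGAAG, which GABPA (nuclear respiratory factor 2) binds, and the YY1 motif AAGATGGCG, on either strand. MRPL50 at chr9:101398589-101398868 on the minus strand has no match in the bases shown, and the YY1 match of its full window begins 23 bases after the start and runs past the printed end. MRPS33 lies at chr7:141014923-141015202 on the minus strand, with an ETS match at the start itself. MRPL30 lies at chr2:99180934-99181213 on the plus strand, with an ETS match well upstream of the start. MRPS10 lies at chr6:42217832-42218111 on the minus strand, with an ETS match before the start and a YY1 match after it. MRPS21 lies at chr1:150293611-150293890 on the plus strand, with 2 ETS matches that flank the start.
MRPL50: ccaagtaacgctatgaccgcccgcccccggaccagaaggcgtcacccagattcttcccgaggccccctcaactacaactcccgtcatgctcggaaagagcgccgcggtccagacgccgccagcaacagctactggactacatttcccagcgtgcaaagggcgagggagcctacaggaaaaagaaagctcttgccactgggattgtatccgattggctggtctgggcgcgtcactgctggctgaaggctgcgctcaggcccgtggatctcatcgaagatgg
MRPS33: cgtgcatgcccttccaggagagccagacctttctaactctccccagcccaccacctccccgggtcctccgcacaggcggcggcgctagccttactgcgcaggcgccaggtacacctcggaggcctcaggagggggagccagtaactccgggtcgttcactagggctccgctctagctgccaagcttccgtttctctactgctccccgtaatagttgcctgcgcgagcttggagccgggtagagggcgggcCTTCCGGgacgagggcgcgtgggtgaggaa
MRPL30: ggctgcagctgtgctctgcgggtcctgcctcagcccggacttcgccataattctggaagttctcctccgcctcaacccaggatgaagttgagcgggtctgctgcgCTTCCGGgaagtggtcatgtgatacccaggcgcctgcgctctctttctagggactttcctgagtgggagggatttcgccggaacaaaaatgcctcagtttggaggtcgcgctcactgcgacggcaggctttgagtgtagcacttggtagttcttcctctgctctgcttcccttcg
MRPS10: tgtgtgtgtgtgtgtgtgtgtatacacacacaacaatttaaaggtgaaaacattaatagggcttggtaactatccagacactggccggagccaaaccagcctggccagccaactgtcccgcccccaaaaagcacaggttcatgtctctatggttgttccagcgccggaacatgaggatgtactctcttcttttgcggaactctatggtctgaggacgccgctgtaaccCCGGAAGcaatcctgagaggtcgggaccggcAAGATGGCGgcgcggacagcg
MRPS21: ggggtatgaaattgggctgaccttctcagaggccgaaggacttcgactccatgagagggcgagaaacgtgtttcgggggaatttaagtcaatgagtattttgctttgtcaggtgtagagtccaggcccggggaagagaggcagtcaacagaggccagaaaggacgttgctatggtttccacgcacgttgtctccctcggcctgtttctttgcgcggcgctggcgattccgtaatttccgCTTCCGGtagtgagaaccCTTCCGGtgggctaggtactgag

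RefSeq windows of 300 bases, from 250 before to 50 after the start, were at hand for 67 members, 83 windows in all since some genes have several starts. The ETS motif was present in 39.8% of the members' windows, in 17.4% of the 13316 windows of all genes in the tables and in 10.3% of all 35116 windows of the reference. The YY1 motif was present in 13.3%, 3.63% and 1.75% of the same windows. An ETS and a YY1 match that overlap were found in 0 of the members' windows and in 3 of the windows of all genes in the tables. The Sp1 GC box GGGCGG was present in 60.2% of the members' windows and 66.6% of the windows of all genes in the tables. Per window, the other motifs stood near the shares of those genes. They were 3.61% against 3.39% for the NRF1 core CGCATGCG and 10.8% against 9.45% for the E-box CACGTG. The CCAAT box had 33.7% against 34.8%, and all motifs were counted on both strands. Counted per gene, the CCAAT box was in 34.3% of members against 43.8% of genes, and the Sp1 box in 61.2% against 78.2%. The 67 members have 83 windows and the 9087 genes have 13316, and a gene with more windows has more chances of a match. The ETS motif was in 44.8% of members against 23.5% of genes, and the YY1 motif in 16.4% against 5.07%. Of the 30 members with the ETS motif, 4 were called higher and 8 lower with siRNA5, and 7 higher and 6 lower with siRNA8, in the authors' deposited tables. Their median log2 change was 0.03 with siRNA5 and 0.06 with siRNA8, against -0.05 and 0.05 for the members without a match, in the authors' deposited tables. Of the 11 members with a YY1 match, 1 was called higher and 3 lower with siRNA5, and 4 higher and 0 lower with siRNA8, in the authors' deposited tables. Their median log2 change was 0.00 with siRNA5 and 0.14 with siRNA8, against -0.05 and 0.00 for the members without a match. Of the 461 genes in the tables with a YY1 match, 27.8% were called higher and 21% lower with siRNA5, and 19.5% higher and 17.1% lower with siRNA8, in the authors' deposited tables. Of the 2131 genes with an ETS match, 25.5% were called higher and 20.3% lower with siRNA5, and 22.4% higher and 19.4% lower with siRNA8, by the authors' deposited tables. The counts of members with a match are small, and no difference from these shares was tested.

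**Figure D2:**
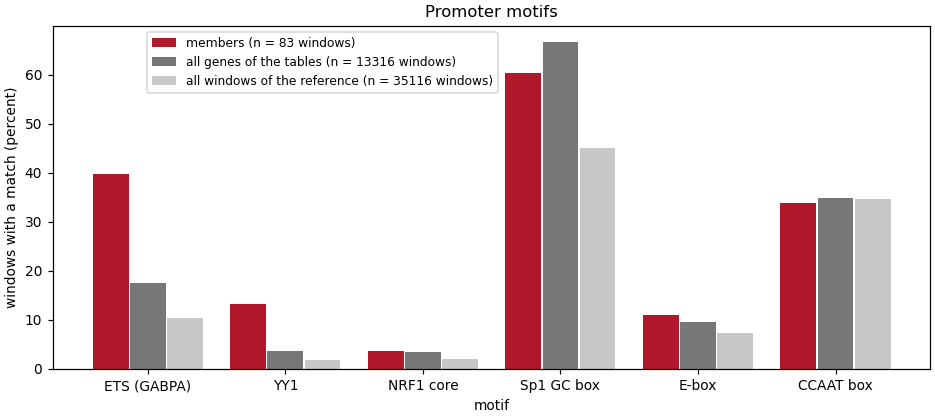
Percent of promoter windows of 300 bases that hold each motif on either strand, for the 83 windows of the members (red), the 13316 windows of all genes in the tables (dark grey) and all 35116 windows of the reference (light grey). The members stand highest for the ETS motif at 39.8% and for the YY1 motif at 13.3%. They are close to all genes in the tables for the NRF1 core, the E-box and the CCAAT box.

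MRPL50, a mitochondria-specific protein of the large subunit, was the member that moved most. Its rebuilt level was 768 normalized counts with siRNA5 and 793 with siRNA8, against 438 in NTC cells. Both knockdown groups thus stood well above the control. In the authors' deposited tables its log2 change was 0.81 (SE 0.0876, adjusted p = 6.32e-19) with siRNA5 and 0.86 (SE 0.0867, adjusted p = 2.03e-21) with siRNA8, or 175% and 181% of NTC with 95% intervals of 156 to 197% and 161 to 204%. The difference between the siRNAs was -0.05 (SE 0.123, adjusted p = 0.824). The annotation lists 3 pseudogenes of MRPL50, and the sources used here do not say how reads that match several copies were counted.

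The other members called higher with both siRNAs were MRPL23 and MRPL15, homologues of bacterial proteins of the large subunit, of which the MRPL23 counterpart sits at the rim of the tunnel through which the new chain leaves. MRPL23 had rebuilt levels of 629 with siRNA5, 600 with siRNA8 and 497 normalized counts in NTC cells. Its log2 change in the authors' deposited tables was 0.34 (SE 0.0919) and 0.27 (SE 0.0916). MRPL15 had levels of 2077, 2107 and 1837 normalized counts in the same order of groups, and log2 changes of 0.18 and 0.20 in the authors' deposited tables. Their differences between the siRNAs did not pass the threshold, with adjusted p of 0.742 for MRPL23 and 0.892 for MRPL15.

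The members called lower with both siRNAs come from both subunits. MRPL12 forms the flexible stalk that translation factors contact, and its rebuilt level was 1483 normalized counts with siRNA5 and 1541 with siRNA8, against 2107 in NTC cells. Its log2 change in the authors' deposited tables was -0.51 (SE 0.0786, adjusted p = 1.12e-09) with siRNA5 and -0.45 (SE 0.0780, adjusted p = 7.12e-08) with siRNA8, or 70.4% and 73.1% of NTC. Among the members, it had the lowest log2 change with siRNA8. MRPL10, the protein that anchors the stalk, was called lower with siRNA5 at -0.33 in the authors' deposited tables, where siRNA8 gave -0.14 (adjusted p = 0.294).

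MRPL41, a mitochondria-specific protein, had rebuilt levels of 815 with siRNA5, 976 with siRNA8 and 1205 normalized counts in NTC cells, the lowest log2 change of all members with siRNA5. In the authors' deposited tables that change was -0.56 (SE 0.131, adjusted p = 8.28e-05), and -0.30 (SE 0.130, adjusted p = 0.0477) with siRNA8. MRPL35, a bacterial homologue, had levels of 734, 824 and 1003 normalized counts in the same order, with log2 changes of -0.45 and -0.28 in the authors' deposited tables. MRPL28 fell less, with log2 changes of -0.21 and -0.20 in the authors' deposited tables. Of the small-subunit homologues of bacterial proteins, MRPS16 had -0.32 and -0.22, MRPS11 had -0.25 and -0.23, and MRPS7, an early binder of the subunit's RNA in bacteria, had -0.22 and -0.16, in the authors' deposited tables. At a threshold of 0.01, MRPS11 lost both calls, and MRPS7, MRPL28 and MRPL41 lost the call with siRNA8. In the annotation, MRPS16 overlaps DNAJC9 on the same strand, MRPL28 overlaps TMEM8A and MRPL12 overlaps AC139530.2. The sources do not say how reads in the shared parts were counted. The annotation also lists 4 pseudogenes of MRPL35 and 3 of MRPS16. For MRPL10 and for each member called lower with both siRNAs, the difference between the siRNAs did not pass the threshold, also with the shared control part removed.

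**Figure D3:**
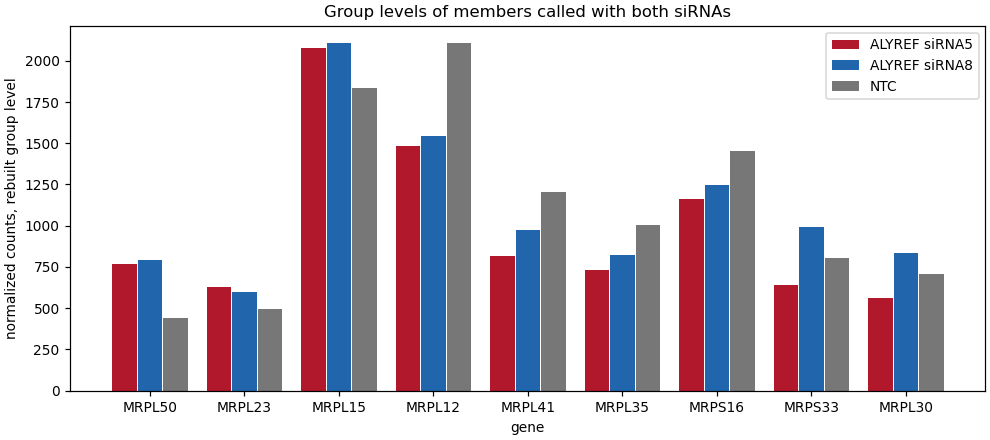
Rebuilt group levels in normalized counts for 9 members called with both siRNAs, with siRNA5 (red), siRNA8 (blue) and NTC (grey) for each gene; the deposited means give no spread per group. MRPL50 stands at 768 and 793 against 438 in NTC cells, MRPL12 at 1483 and 1541 against 2107, and MRPS33 and MRPL30 lie below NTC with siRNA5 and above it with siRNA8.

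MRPS33 and MRPL30 were called in opposite directions. MRPS33, a mitochondria-specific protein of the small subunit, had a rebuilt level of 640 with siRNA5 and 992 with siRNA8, against 802 normalized counts in NTC cells. Its log2 change in the authors' deposited tables was -0.33 (SE 0.0837, adjusted p = 0.000385) with siRNA5 and 0.31 (SE 0.0789, adjusted p = 0.00047) with siRNA8, and the difference was -0.63 (SE 0.115, adjusted p = 4.63e-07). MRPL30, a bacterial homologue of the large subunit, had levels of 564 with siRNA5, 837 with siRNA8 and 709 normalized counts in NTC cells. Its log2 changes of -0.33 (adjusted p = 0.000509) and 0.24 (adjusted p = 0.0116) in the authors' deposited tables differed by -0.57 (SE 0.120, adjusted p = 1.73e-05). At a threshold of 0.01, MRPL30 lost its call with siRNA8, while MRPS33 kept both. The annotation lists 3 pseudogenes of MRPS33 and 1 of MRPL30, and MRPL30 overlaps AC079447.1 and AC092587.1 on the same strand.

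Most of the other differences between the siRNAs also lay on the side of lower values with siRNA5. MRPS25, a mitochondria-specific small-subunit protein, had rebuilt levels of 644 with siRNA5, 920 with siRNA8 and 871 normalized counts in NTC cells, a difference of -0.51 (adjusted p = 3.81e-05). MRPL4, whose bacterial counterpart lines the exit tunnel, had levels of 1032, 1418 and 1514 in the same order, a difference of -0.46 (adjusted p = 6.78e-05). MRPL2, whose bacterial counterpart lies next to the peptidyl transferase centre, had a difference of -0.42, MRPL36 of -0.41 and MRPS30 of -0.38. MRPS30 sits in the large subunit in spite of its name. The differences were smaller for MRPS10 at -0.31, MRPS27, an RNA-binding repeat protein, at -0.31, MRPS15 at -0.29, MRPS2 at -0.25 and MRPL37 at -0.23. At a threshold of 0.01, MRPS10, MRPS27, MRPS15 and MRPS2 lost this call. The opposite side held MRPL54, mitochondria-specific, with levels of 459 with siRNA5 and 313 with siRNA8, against 398 in NTC cells, a difference of 0.55 (SE 0.174, adjusted p = 0.00658). It also held MRPL27, the homologue of a bacterial protein whose tail reaches the peptidyl transferase centre, with a difference of 0.35 (adjusted p = 0.0426), a call lost when changes were centred on the ratio of the summed levels and at a threshold of 0.01.

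By class, the homologues of bacterial proteins in the large subunit, 29 genes, had 4 called higher and 8 lower with siRNA5, and 7 higher and 4 lower with siRNA8, in the authors' deposited tables. Called genes were 41.4% of this class with siRNA5 and 37.9% with siRNA8, beside 46.4% and 41.5% of all genes. At a threshold of 0.01 the counts with siRNA8 were 3 higher and 2 lower. Besides the members above, MRPL39 at 0.33, MRPL48 at 0.30 and MRPL18 at 0.19 rose with siRNA5 in the authors' deposited table, of which MRPL18 belongs to this class and the other two are mitochondria-specific. With siRNA8, MRPL32 rose by 0.27 on the log2 scale in the authors' deposited table, and MRPL16, which lies close to the peptidyl transferase centre in bacteria, had -0.28. The mitochondria-specific proteins of the large subunit, 22 genes, had 3 called higher and 4 lower with siRNA5, and 5 higher and 5 lower with siRNA8, in the authors' deposited tables. Called genes were 31.8% of this class with siRNA5 and 45.5% with siRNA8. With siRNA8 the counts became 2 higher and 1 lower at a threshold of 0.01. Where only means of 500 or more were kept, 3 were lower with siRNA8. MRPL57 was called lower with siRNA5 at -0.49 (SE 0.116), while MRPL46 was called higher with siRNA8 at 0.34 (SE 0.118), in the authors' deposited tables. The annotation lists 5 pseudogenes of MRPL57. MRPL54 at -0.35, MRPL55 at -0.29, MRPL40 at -0.26 and MRPL43 at -0.23 were lower with siRNA8 in the authors' deposited table. MRPL58, a peptidyl-tRNA hydrolase that frees stalled chains, was higher with siRNA8 at 0.22, and MRPL45, which holds the ribosome at the inner membrane, was called with neither siRNA.

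In the small subunit, the 15 homologues of bacterial proteins had 2 called higher and 8 lower with siRNA5, and 1 higher and 4 lower with siRNA8, with median log2 changes of -0.19 and 0.03, in the authors' deposited tables. Called genes were 66.7% of this class with siRNA5 and 33.3% with siRNA8, beside 46.4% and 41.5% of all genes. At a threshold of 0.01, 4 of the 15 were lower with siRNA5 and 1 with siRNA8. The shares of all genes just given are at 0.05 and are no background for these counts. MRPS12, which lies at the decoding centre, was lower with siRNA5 at -0.42 (SE 0.0971), MRPS14 at -0.40 (SE 0.144) and MRPS2 at -0.36 (SE 0.0646), in the authors' deposited table. MRPS21 at 0.33 and MRPS28 at 0.27 rose with siRNA5 in the authors' deposited table. MRPS21 had rebuilt levels of 1040 with siRNA5, 944 with siRNA8 and 828 normalized counts in NTC cells, and with siRNA8 its adjusted p of 0.0505 lay just above the threshold in the authors' deposited table. The annotation lists 8 pseudogenes of MRPS21, the most of any member.

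The 9 mitochondria-specific proteins of the small subunit had 0 called higher and 2 lower with siRNA5, and 6 higher and 0 lower with siRNA8, with median log2 changes of 0.08 and 0.20, in the authors' deposited tables. Called genes were 22.2% of this class with siRNA5 and 66.7% with siRNA8, beside 46.4% and 41.5% of all genes. The summed level of the 9 genes was 98.0% of NTC with siRNA5 and 109.6% with siRNA8. That of the 15 homologues was 91.6% and 97.5%. MRPS31 had levels of 250 with siRNA5 and 337 with siRNA8, against 227 normalized counts in NTC cells, and with siRNA8 its log2 change in the authors' deposited table was 0.57 (SE 0.134, adjusted p = 0.000111). Its pseudogene MRPS31P5 has a row of its own with a mean of 31.8 in the authors' deposited tables. MRPS27 had levels of 668 with siRNA5, 827 with siRNA8 and 635 in NTC cells, and a log2 change of 0.38 (SE 0.0868) with siRNA8 in the authors' deposited table. MRPS35 at 0.20, MRPS22 at 0.20 and MRPS26 at 0.21 were also called higher with siRNA8 in the authors' deposited table. When changes were centred on the median of all genes, the call of MRPS26 was lost, and 5 of the 9 genes were higher and 1 lower. At a threshold of 0.01 it was also lost, and 4 genes were higher. Among the 8 genes of this class with a mean of at least 500, 5 were higher and 1 lower with siRNA8. In the direct comparison at 0.05, 3 of these 9 genes were lower with siRNA5 than with siRNA8, and 0 were higher. Among all genes, 14.8% were lower and 17.2% higher in that comparison. At a threshold of 0.01, 2 of the 9 were lower, a count for which these shares at 0.05 are no background.

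**Figure D4:**
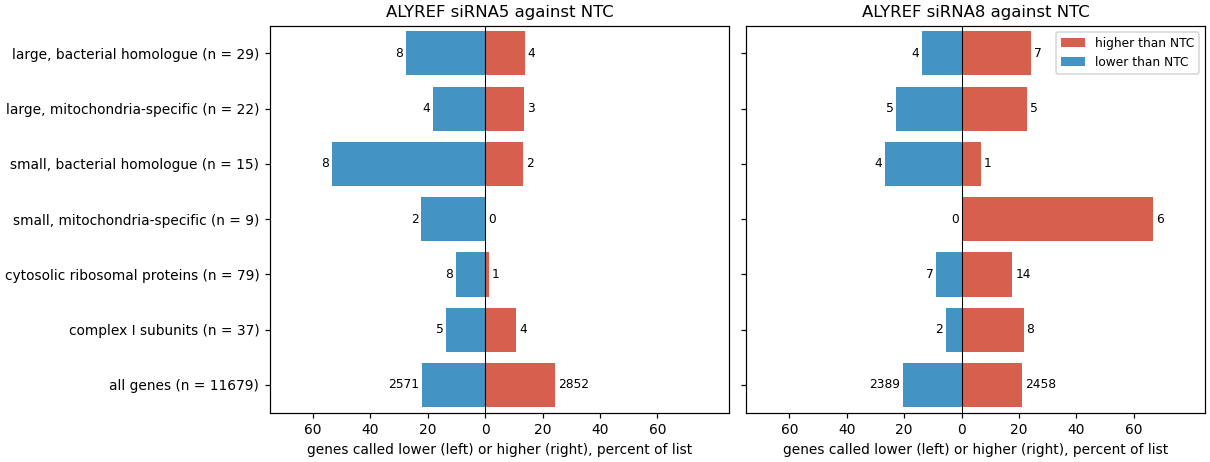
Percent of each list called lower (bars to the left, blue) or higher (bars to the right, red) than NTC with siRNA5 (left panel) and siRNA8 (right panel), with the number of genes beside each bar. The small-subunit homologues of bacterial proteins have 8 of 15 called lower with siRNA5 at an adjusted p under 0.05, and the mitochondria-specific small-subunit proteins have 6 of 9 called higher with siRNA8, where all genes have 22% and 21%.

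In the authors' deposited table, MRPS30 was also higher with siRNA8, at 0.33 (SE 0.0805), and so was MRPS6, at 0.31 (SE 0.0819). MRPS6, a small-subunit homologue of a bacterial protein, overlaps SLC5A3 on the same strand in the annotation. MRPS36, the member not placed in the ribosome, had levels of 217 with siRNA5, 171 with siRNA8 and 167 normalized counts in NTC cells, and its log2 change of 0.38 (SE 0.161, adjusted p = 0.0397) with siRNA5 passed the threshold in the authors' deposited table. It has the lowest deposited mean of the protein-coding members, 185 normalized counts.

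Per kilobase of transcript, the members' deposited means spanned a wide range. The highest were MRPL33 at 2201, MRPL20 at 2013, MRPL3 at 1917, MRPS34 at 1864 and MRPL37 at 1783 normalized counts per kilobase. The lowest were MRPL42 at 46.6, MRPS14 at 121 and MRPS36 at 144, where the value of MRPL42 rests on an annotated transcript of 15582 nt. Of the highest 5, MRPL3 and MRPL37 were called, with log2 changes of 0.14 each with siRNA8 in the authors' deposited table. The other 3 were called with neither siRNA.

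The members are compact genes. Their principal transcripts in GENCODE have a median length of 1396.5 nt, 5 exons and a span of 8417 bp in the genome, against 3174 nt, 9 exons and 29184 bp for the 10935 genes matched. The 26 members with the shortest span, 1176 to 5151 bp, had 0 called higher and 10 lower with siRNA5, and 1 higher and 10 lower with siRNA8, by the authors' deposited tables. The median log2 change of these members was -0.17 with siRNA5 and -0.14 with siRNA8. All 1035 genes in the same span range had medians of -0.11 and -0.11, with 10.8% called higher and 30.5% lower with siRNA5 and 9.86% higher and 28.4% lower with siRNA8, by the authors' deposited tables. The 25 members with the longest span had 4 called higher and 4 lower with siRNA5, and 8 higher and 3 lower with siRNA8, with medians of 0.05 and 0.13, in the authors' deposited tables. All 6325 genes in that range had medians of 0.04 and 0.04, with 28.9% called higher and 20.6% lower with siRNA5 and 24.0% higher and 19.9% lower with siRNA8. The median of genes of this short span was below zero with both siRNAs, for the members and for all genes. The mitochondria-specific small-subunit genes have the longest median span of the classes, 15276 bp, and the classes therefore differ in span as well as in role. Its part in the difference between the classes was not tested.

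Across the 76 members, the Spearman correlation of span with the log2 change was 0.33 with siRNA5 and 0.45 with siRNA8, against 0.16 and 0.17 across the 10935 genes. For the length of the transcript it was -0.32 with siRNA5 and -0.0036 with siRNA8 across the members, against 0.10 and 0.04 across all genes. The 25 members with the longest transcripts had 1 called higher and 12 lower with siRNA5, and 7 higher and 3 lower with siRNA8, in the authors' deposited tables. Among all 9055 genes in that range of length, 27.1% were called higher and 22.3% lower with siRNA5, and 22.8% higher and 21.0% lower with siRNA8. For the GC content of the transcript the correlation was -0.26 and -0.31 across the members and -0.27 and -0.18 across all genes. These correlations are over genes, which share the same libraries and are not independent replicates.

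**Figure D5:**
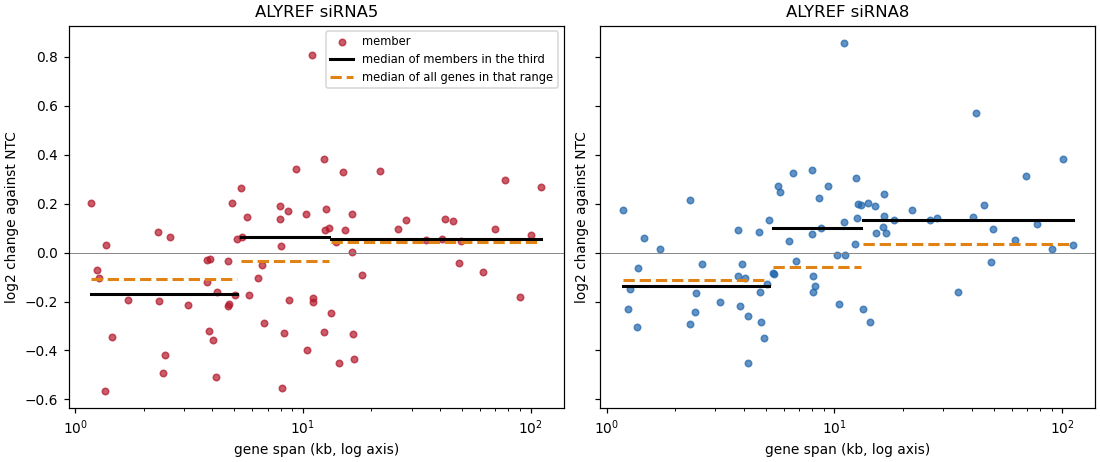
Log2 change against NTC (vertical axis) by the span of the gene in kb on a log axis for the 76 protein-coding members with siRNA5 (left) and siRNA8 (right), each point a gene. Black lines are medians of the members in 3 groups by span and dashed orange lines the medians of all genes in the same range; the shortest members lie at -0.17 and -0.14, the genes of their range at -0.11 and -0.11.

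A divergent neighbour, a gene on the opposite strand whose start lies within 1000 bp, was annotated for 19 of 76 members (25%) and for 1316 of 10920 genes (12.1%). MRPL46 and MRPS11 share such a start region, 34 bp apart. In the authors' deposited tables MRPL46 had 0.14 (adjusted p = 0.368) with siRNA5 and was called higher with siRNA8 at 0.34, and MRPS11 was called lower with both, at -0.25 and -0.23. The difference between these genes was not tested. MITD1, the neighbour of MRPL30, was called higher with both siRNAs, at 0.36 and 0.53, in the authors' deposited tables. SKA3, a kinetochore gene next to MRPL57, was higher with both at 0.25 and 0.26, where MRPL57 had -0.49 and -0.24, in the authors' deposited tables. NDUFS6, a complex I subunit next to MRPL36, was higher with both at 0.22 and 0.19, where MRPL36 had -0.34 and 0.06, in the authors' deposited tables. TWNK, the mitochondrial DNA helicase next to MRPL43, was lower with both, at -0.31 and -0.58, and MRPL43 had -0.07 and -0.23, in the authors' deposited tables. ZNF189, the neighbour of MRPL50, was called with neither siRNA, with log2 changes of -0.17 and 0.10 in the authors' deposited tables. These neighbours were read from the annotation and not picked by their values, but the pairs named here were chosen after their values were seen. The libraries were directional, and the sources do not say whether the counting used strand.

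Other genes of mitochondrial translation were set beside the members as background to them. For the counts below, 46.4% of all genes were called with siRNA5 and 41.5% with siRNA8. Of 5 further mitoribosomal proteins, the GTPase DAP3 was higher with siRNA5 at 0.17 and the RNA-binding protein PTCD3 lower at -0.26, and AURKAIP1 was lower with siRNA8 at -0.35, in the authors' deposited tables. Of 14 translation factors, 4 were called higher and 3 lower with siRNA5, and 4 higher and 1 lower with siRNA8, in the authors' deposited tables. TACO1, an activator of the translation of a cytochrome oxidase subunit, had levels of 714 with siRNA5 and 337 with siRNA8, against 879 normalized counts in NTC cells. Its log2 change in the authors' deposited tables was -0.30 (SE 0.0921) with siRNA5 and -1.38 (SE 0.103) with siRNA8, and the difference was 1.08 (adjusted p = 1.43e-13). MTFMT, which formylates the initiator tRNA, was higher with both, at 0.55 and 0.63, in the authors' deposited tables. With siRNA5, GFM2, which acts in ribosome recycling, was lower at -0.71, and the ribosome recycling factor MRRF was higher at 0.32, in the authors' deposited table. C12orf65, a rescue factor of stalled mitoribosomes, was higher with siRNA5 at 0.67 in the authors' deposited table.

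Of 24 assembly factors, 1 was called higher and 6 lower with siRNA5, and 5 higher and 3 lower with siRNA8, by the authors' deposited tables. The GTPase MTG1 had levels of 328 with siRNA5, 562 with siRNA8 and 605 normalized counts in NTC cells, and a log2 change of -0.88 (SE 0.105) with siRNA5 in the authors' deposited table. The helicase DDX28 was lower with siRNA5 at -0.60, and the RNA methyltransferase MRM1 was lower with both, at -0.54 and -0.45, in the authors' deposited tables. MTERF3 was lower with siRNA5 at -0.36 and higher with siRNA8 at 0.30, and the methyltransferase MRM2 was lower with siRNA8 at -0.52, in the authors' deposited tables. Of 21 genes of mitochondrial transcription and RNA, 2 were called higher and 2 lower with siRNA5, and 3 higher and 1 lower with siRNA8, in the authors' deposited tables. TFAM, which packages mitochondrial DNA and starts its transcription, had levels of 2797 with siRNA5 and 2657 with siRNA8, against 1809 normalized counts in NTC cells, and log2 changes of 0.63 and 0.55 in the authors' deposited tables. The elongation factor TEFM was lower with both, at -0.48 and -0.46, and LRPPRC, which stabilises mitochondrial mRNA, was lower with siRNA5 at -0.34, in the authors' deposited tables.

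Of 9 regulators of mitochondrial biogenesis, 3 were called higher and 2 lower with siRNA5, and 2 higher and 1 lower with siRNA8, by the authors' deposited tables. The coactivator PPARGC1B was higher with both, at 0.82 (SE 0.222) and 0.58 (SE 0.224), from a deposited mean of 84.1, and MYC was higher with both, at 0.29 and 0.35, in the authors' deposited tables. In the authors' deposited tables GABPA, the factor of the ETS motif above, had 0.01 (adjusted p = 0.971) with siRNA5 and -0.09 (adjusted p = 0.498) with siRNA8. GABPB2, a subunit that pairs with GABPA, had 0.00 (adjusted p = 0.996) with siRNA5 and was lower with siRNA8 at -0.75 (SE 0.262, adjusted p = 0.0126), from a deposited mean of 78.4, in the authors' deposited tables. GABPB1, the other such subunit, was called with neither, at -0.02 and 0.05. NRF1 had -0.09 and -0.12 in the authors' deposited tables and was called with neither. YY1 was higher with siRNA5 at 0.21 in the authors' deposited table. The mitochondrially encoded genes were not analysed here.

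The 79 cytosolic ribosomal protein genes had 1 called higher and 8 lower with siRNA5, and 14 higher and 7 lower with siRNA8, with median log2 changes of -0.02 and 0.05, in the authors' deposited tables. The 37 complex I genes had 4 called higher and 5 lower with siRNA5, and 8 higher and 2 lower with siRNA8, with medians of 0.03 and 0.05, in the authors' deposited tables. The 27 genes of cytochrome c oxidase and ATP synthase had 3 called higher and 1 lower with siRNA5, and 8 higher and 2 lower with siRNA8, by the authors' deposited tables. The members' medians of -0.03 and 0.06 lie beside these, and the share of members called, 41.0% with each siRNA, is above the 11.4% and 26.6% of the cytosolic ribosomal protein genes, whose deposited means are higher. No test of these differences between lists was made.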

How the data were processed

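Polyadenylated RNA of 786-O cells was measured in 6 libraries, 2 each with ALYREF siRNA5, ALYREF siRNA8 and NTC, as directional libraries read in paired ends of 42 nt per the labels' protocols. The submitters' processing notes name STAR, Picard, HTSeq and DESeq2, with no versions or settings, and build hg19. The authors deposited 2 tables of 11681 rows, 11679 genes and 2 HTSeq counters, which held 6.23% (no feature) and 1.62% (ambiguous) of the summed means and stayed out of all counts. Each row's signal, per the file headers, is a mean of normalized counts, and since both tables hold the same means they come from a joint fit. Per the file headers, log2 fold changes and SE are on the log2 scale, and the sources do not say whether fold changes were shrunk towards zero. The score deposited by the authors is the log2 change over its SE, and the deposited p-values are two-sided normal, with Benjamini-Hochberg adjustment over the rows, which was checked on the values. Depth per library is not given, and no interval beyond the authors' SE can be had; 95% intervals are the log2 change ± 1.96 SE.

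The plan named the authors' DESeq2 fit as the test because the tables hold comparisons. Group levels were rebuilt as NTC = 3 × mean / (1 + fold of siRNA5 + fold of siRNA8), which assumes 2 libraries per group. The direct test of siRNA5 against siRNA8 took the difference of both log2 changes, with a normal two-sided p adjusted by Benjamini-Hochberg over 11679 genes, and an alternative removed the control variance rebuilt from the tables. Both were tested on simulated data. Transcript lengths, exons, GC content, spans and neighbours are from GENCODE v29 on GRCh38, 1 principal transcript a gene, matched by symbol for 76 members and 10935 of 11679 genes, with no coordinates carried over. Promoters are from RefSeq on GRCh38.p14. Alternatives were a threshold of 0.01, genes with a mean of at least 500, and 2 other centres. Members and gene lists were chosen with earlier results of these data known. Values are given in full for members called with both siRNAs or in opposite directions, and for the largest changes and differences. The highest and lowest members are given by mean per kilobase, where the plan had named the deposited mean. Python 3.11.15 with numpy 2.4.6, pandas 2.3.3, scipy 1.17.1 and matplotlib 3.10.9 was used.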

Additional observations from a re-analysis of the deposited data

Results flagged for a closer look

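The direct comparison of the siRNAs singled out 14 members, whose log2 change with siRNA5 differed from that with siRNA8 past an adjusted p of 0.05 (normal two-sided test, Benjamini-Hochberg over all genes). The differences below zero were -0.63 for MRPS33, -0.57 for MRPL30, -0.51 for MRPS25, -0.46 for MRPL4, -0.42 for MRPL2, -0.41 for MRPL36 and -0.38 for MRPS30. They were -0.31 for MRPS10, -0.31 for MRPS27, -0.29 for MRPS15, -0.25 for MRPS2 and -0.23 for MRPL37. The differences above zero were 0.35 for MRPL27 and 0.55 for MRPL54. ALYREF itself differed by -0.47 (SE 0.128, adjusted p = 0.00152), at 5.67% of NTC with siRNA5 and 7.83% with siRNA8, and its part in these differences was not tested.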

How the results depend on the processing

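With a threshold of 0.01, 10 members were higher and 4 lower with siRNA8, and 1 was higher with siRNA5 than with siRNA8. Of 78 single calls, 46 stayed past the threshold, MRPL50, MRPL12, MRPS33 with both siRNAs and MRPL30 with siRNA5 among them. Among the calls lost were the differences of MRPS10, MRPS27, MRPS15, MRPS2 and MRPL27. MRPS11 lost its call with both siRNAs, and MRPS7, MRPL28, MRPL41 and MRPL30 lost theirs with siRNA8. Centred on the ratio of the summed group levels, which moved log2 changes by 0.02 and 0.00, 1 member was higher with siRNA5 than with siRNA8, and MRPS36 with siRNA5 and MRPL27 in the difference lost their call. Centred on the median of all genes, a shift of 0.01 with each siRNA, MRPS26 lost its call with siRNA8. With the control covariance removed, 5 members were higher and 20 lower with siRNA5 than with siRNA8, the pseudogene row MRPS31P5 among the 20. All 14 calls of the main test were kept. Among genes with a mean of at least 500, each count over all members stayed within 1.5 times its main value, and so did the counts over all members not named here. Counts by class are smaller and moved by more, and only some of these moves are given beside them. No paired analysis was possible because the deposited tables hold no values per library, and for the same reason no library could be left out in turn, so that the effect of a single library on any call is unknown. Depth per library is unknown, and the precision is that of the authors' SE.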
